A study of Homo sapiens with 60 samples.

Results

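Soyo-san, a traditional formula of several herbs, was set against Menthae Herba, the mint herb that is one of its components, in HepG2 cells, a human line derived from a hepatocellular carcinoma. Both were 70% ethanol extracts given for 24 h at 500 µg/mL, and the comparison rests on 5 of the 60 libraries of the series, 2 with Soyo-san and 3 with Menthae Herba, which their labels assign to these groups. The same extracts at 20 µg/mL, with 2 Soyo-san and 3 Menthae Herba libraries, were compared too, because Soyo-san libraries carry set number 14 and Menthae Herba libraries set number 12. At 500 µg/mL alone the set and the extract cannot be told apart. The doses at 100 µg/mL, again with 2 Soyo-san and 3 Menthae Herba libraries, and 3 vehicle libraries under set number 1 gave further levels. The vehicle libraries stood apart from the others used here, with 15.8 to 19.14% of counts from mitochondrially encoded genes and TMM factors of 0.8963 to 0.9342, so vehicle levels are given as a description and not compared. Extracts were dissolved in DMSO, stated as 0.1% in the sample labels and as 2% in the design text. Doses are of whole extract, so the amount of mint in 500 µg/mL of Soyo-san was smaller than in 500 µg/mL of Menthae Herba by a share that the sources used here do not state. All libraries came from 1 cell line. Since no label states that replicates were separate cultures, each p-value measures the spread between libraries alone, and that spread may be technical. The comparison asks how the response to the whole mixture differs from that to 1 of its herbs.

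Several well-known control systems of liver cells bear on the genes below. The aryl hydrocarbon receptor (AHR) is a transcription factor that binds planar aromatic compounds, including many of plant origin, and switches on the cytochrome P450 gene CYP1A1. SREBP2 drives cholesterol synthesis and LDL uptake when sterols in the endoplasmic reticulum (ER) run low, SREBP1 drives fatty acid synthesis, and MTF1 drives the zinc-binding metallothioneins when free zinc is high. ATF4 is made when translation initiation is slowed by amino acid shortage, ER stress or heme shortage, and it drives asparagine and serine synthesis, amino acid transport and stress regulators such as DDIT3, while the other arms of the unfolded protein response raise ER chaperones.

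The libraries carried the marks of HepG2. All 10 hepatocyte and HepG2 markers were detected, and their summed level was 46546 to 47446 CPM (counts scaled by library size) in Soyo-san libraries at 500 µg/mL and 24119 to 27712 CPM in Menthae Herba libraries at 500 µg/mL; the most abundant of them, APOB, averaged 24402 CPM with Soyo-san and 7483 CPM with Menthae Herba. Summed blood cell markers lay at 1641 to 1696 CPM in Soyo-san and 1574 to 1618 CPM in Menthae Herba, nearly all of it LYZ at 1632 CPM with Soyo-san and 1560 CPM with Menthae Herba, with HBB, MS4A1 and PPBP at 0 counts. Stromal markers summed to 50.6 to 53.7 CPM in Soyo-san and 47.5 to 49.8 CPM in Menthae Herba with DCN at 0, and endothelial markers to 3.63 to 3.72 CPM in Soyo-san and 2.7 to 3.97 CPM in Menthae Herba with KDR, CLEC4G, EMCN and TEK at 0. Lung and gut markers summed to 476 to 497 CPM in Soyo-san and 432 to 453 CPM in Menthae Herba, with VIL1 the most abundant and SFTPC and SCGB1A1 at 0. Depth was 17518496 and 23841334 counts in the Soyo-san libraries, the first being the shallowest of the series, and 31843249, 25379840 and 24315561 counts in the Menthae Herba libraries. Mitochondrially encoded genes took 13.53% and 12.08% of counts in Soyo-san and 14.85%, 13.34% and 14.07% in Menthae Herba. Menthae Herba replicate 1 stood apart from its fellows, with a chi-square per gene of 7.84 and 7.74 against replicates 2 and 3, where those differed from each other by 4.22 and the Soyo-san libraries by 4.18. The genes higher in it included the ATF4 targets described further on, and most of those named among them are given with and without it.

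At 500 µg/mL Soyo-san and Menthae Herba differed in many genes by modest amounts and a few genes by more. Of 16982 genes tested, 1113 were higher and 531 lower with Soyo-san at an edgeR Benjamini-Hochberg adjusted p under 0.05, which is 6.55% and 3.13% of genes and 9.68% together. Each list count at 500 µg/mL given below stands against these shares. Among these calls 40 genes were at least 2-fold higher and 27 at least 2-fold lower, and the median absolute log2 fold change of the called genes was 0.30, while the median over all genes was -0.01. The count of 1644 was 861 without Soyo-san replicate 1, 977 without Soyo-san replicate 2 and 1380 to 1425 without 1 of the Menthae Herba libraries. With 2 and 3 libraries per group, the spread used in the test was shared over 22 groups of the series. Without regard to any test, the libraries of the extracts did not overlap in CPM for 6616 genes, or 39% of those tested.

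Fewer genes were called between the extracts at the low dose, where set and extract differ together as well. At 20 µg/mL 20 genes were higher and 5 lower with Soyo-san, 0.118% and 0.0294% of genes and 0.147% together, and 1274 had an unadjusted p under 0.05. Of these 25 genes, 20 were also called at 500 µg/mL and all 20 in the same direction, which is 80% of the 20 µg/mL list and 1.22% of the 500 µg/mL list. At 100 µg/mL 50 genes were higher and 10 lower, 0.294% and 0.0589% of genes and 0.353% together, and 41 of the 60, or 68.3%, were called at 500 µg/mL, 37 in the same direction and 4 in the opposite one. The counts at 20 and 100 µg/mL depend on single libraries: without Soyo-san replicate 1 of the dose each was 2. They also depend on the fit, being 191 at 20 µg/mL and 282 at 100 µg/mL without the low-count filter, 105 and 228 after removal of each library's trend on GC content and transcript length, and 130 and 512 with only the groups of the contrast in the fit. The low-dose libraries held 28042814 and 24085050 counts with Soyo-san and 22243152 to 23789951 with Menthae Herba.

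The change of the difference from the low to the high dose was tested directly as an interaction, in which any set difference common to both doses drops out. It was called for 517 genes on the Soyo-san side and 108 on the Menthae Herba side, 3.04% and 0.636% of genes and 3.68% together. Genes called both at 500 µg/mL and in this interaction, in the same direction, numbered 585, or 3.44% of genes, with 492 higher and 93 lower in Soyo-san (2.9% and 0.548%), and the count was 398 to 617 with single libraries left out. Most of them moved with the Menthae Herba dose: of the 492 higher genes, 453 fell between 20 and 500 µg/mL of Menthae Herba, while 47 rose and 83 fell between 20 and 500 µg/mL of Soyo-san. Of the 93 lower genes, 89 rose with the Menthae Herba dose and 18 with the Soyo-san dose, and 1 fell with Soyo-san. These counts are a description only, because the same libraries entered the calls that chose the genes. Over all genes 671, or 3.95%, were called between 500 and 20 µg/mL of Soyo-san (2.13% higher and 1.83% lower), and 3954, or 23.3%, between 500 and 20 µg/mL of Menthae Herba (10.8% higher and 12.5% lower). The Soyo-san count was 323 to 419 with single libraries left out, and Soyo-san had 2 libraries per dose where Menthae Herba had 3, so these counts do not rank the extracts.

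**Figure D1:**
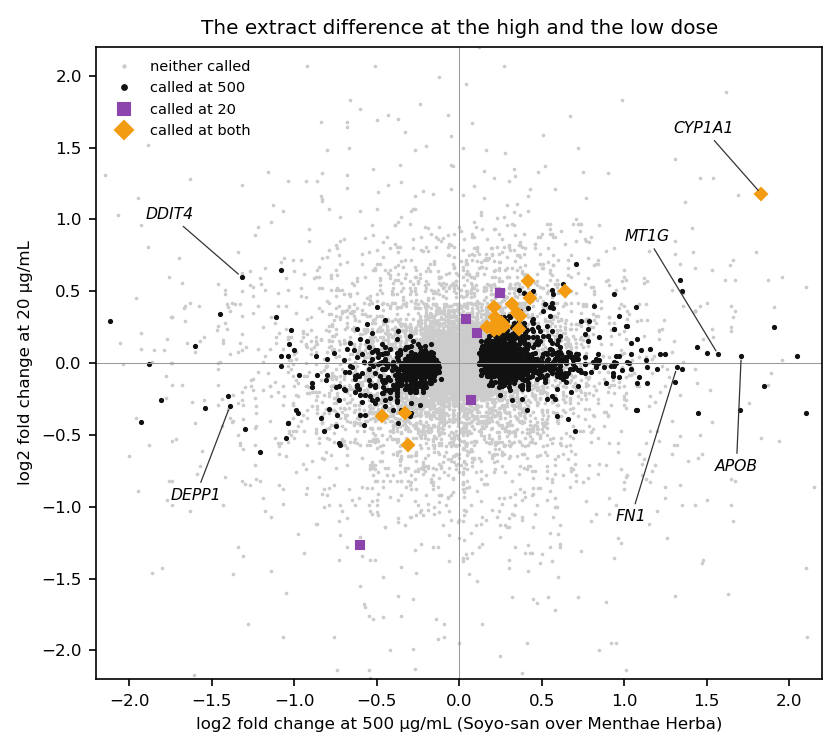
Log2 fold change of Soyo-san over Menthae Herba at 500 µg/mL (x axis) and at 20 µg/mL (y axis) for each gene tested, with 185 genes beyond 2.2 on either axis not drawn. Genes called at 500 µg/mL spread along the x axis and lie near 0 on the y axis, while CYP1A1 is called at both doses, at 1.83 and 1.18.

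CYP1A1, the enzyme that oxidizes polycyclic aromatic compounds and the standard readout of AHR, had the highest fold change of the genes that met the naming rule. It lies on chromosome 15 at 74719542 to 74725610 of GRCh38, minus strand (ENSG00000140465). Its level was 210 and 236 CPM in the Soyo-san libraries and 64.6, 65.6 and 58.7 CPM in the Menthae Herba libraries at 500 µg/mL, with no overlap. The log2 fold change was 1.83 ± 0.08 (SE; edgeR adjusted p = 9.0e-23), a 3.55-fold higher level with Soyo-san. The promoter of CYP1A1 is shown because the core of the AHR response element, GCGTG, stands in it; the 250 bases upstream of the RefSeq start (GRCh38.p14, chr15:74725529-74725778, minus strand) hold 1 match on either strand, in capitals, starting 57 bases before the start.

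CYP1A1: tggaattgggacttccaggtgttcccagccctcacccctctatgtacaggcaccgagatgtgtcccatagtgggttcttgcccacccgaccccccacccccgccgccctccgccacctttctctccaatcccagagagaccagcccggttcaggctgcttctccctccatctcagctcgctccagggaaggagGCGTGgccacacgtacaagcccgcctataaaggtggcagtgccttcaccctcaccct

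The same 5 letters occur in 32.2% of the 35116 RefSeq promoters of this length, so the match is a description only. CYP1A1 rose with the dose of both extracts. With Soyo-san it averaged 14.9, 44.5 and 223 CPM at 20, 100 and 500 µg/mL, and with Menthae Herba 6.6, 9.19 and 63 CPM, where vehicle had 8.28 CPM. Between 500 and 20 µg/mL the log2 fold change was 3.90 ± 0.10 in Soyo-san and 3.25 ± 0.10 in Menthae Herba (adjusted p = 4.3e-31 and 1.1e-28). The difference between the extracts was already 1.18 ± 0.13 at 20 µg/mL (adjusted p = 1.1e-07) and 2.28 ± 0.10 at 100 µg/mL (adjusted p = 2.2e-21), and it was larger at 500 than at 20 µg/mL by 0.65 ± 0.15 (adjusted p = 0.00496). At 20 µg/mL CYP1A1 had the largest fold change of the 20 genes called higher with Soyo-san, and the only one whose interaction was called.

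Most other AHR targets differed little. Of 12 genes listed 8 passed the filter on low counts, and 4 of these were called higher at 500 µg/mL, CYP1A1, the AHR repressor AHRR, NFE2L2 and the amino acid transporter SLC7A5, with 0 lower and a list median of 0.13. The count was 2 with only the groups of the contrast in the fit, and AHRR, NFE2L2 and SLC7A5 are named because they make up the count. AHRR, whose product competes with AHR, had 1.39 and 1.98 CPM in Soyo-san libraries and 0.62, 1.15 and 1.07 CPM in Menthae Herba libraries, a difference of 0.88 ± 0.26 (adjusted p = 0.0188). Its interaction was not called (0.90, adjusted p = 0.3). ALDH3A1, an aldehyde dehydrogenase of the same battery, rose with the dose of each extract by 1.61 in Soyo-san and 1.36 in Menthae Herba, at 1.79 CPM for Soyo-san and 1.77 CPM for Menthae Herba at 500 µg/mL. The quinone reductase NQO1, a target of AHR and of NRF2, likewise rose with both extracts, by 0.72 in Soyo-san and 0.85 in Menthae Herba, and at 500 µg/mL it had 769 and 801 CPM with Soyo-san and 795, 860 and 805 CPM with Menthae Herba (-0.06 ± 0.04, adjusted p = 0.484).

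APOB, the structural protein of LDL and VLDL, showed the largest difference in mean CPM of all genes tested. It had 24202 and 24602 CPM in the Soyo-san libraries and 8898, 7425 and 6127 CPM in the Menthae Herba libraries at 500 µg/mL, where the lowest Soyo-san library lay above the highest Menthae Herba library. The log2 fold change was 1.71 ± 0.09 (adjusted p = 3.7e-20). At 20 µg/mL APOB averaged 27869 CPM with Soyo-san and 27029 CPM with Menthae Herba, a difference of 0.05 (adjusted p = 0.975), and vehicle at 29105 CPM. The interaction was 1.66 ± 0.12 (adjusted p = 1.1e-13), where the log2 fold change of 500 over 20 µg/mL was -0.20 in Soyo-san (adjusted p = 0.349) and -1.86 in Menthae Herba (adjusted p = 2.4e-23).

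Large matrix and receptor proteins made up 6 of the 12 genes that stood highest with Soyo-san. FN1, fibronectin, had 13562 and 13805 CPM with Soyo-san and 6096, 5661 and 4710 CPM with Menthae Herba (1.32 ± 0.05, adjusted p = 1.2e-24). RELN, the extracellular protein reelin, had 1453 and 1454 CPM with Soyo-san and 671, 581 and 508 CPM with Menthae Herba (1.31 ± 0.06, adjusted p = 3.8e-22). In both genes the groups were far apart, and the Menthae Herba libraries spread more widely than the Soyo-san libraries. HSPG2, the basement membrane proteoglycan perlecan, differed by 1.25, the matrix protein FRAS1 by 1.20, LAMA5, a laminin chain, by 1.10 and the endocytic receptor LRP1 by 1.14 (adjusted p from 3.8e-22 to 2.4e-16). None of these 6 genes was called at 20 µg/mL, their differences lying between -0.13 and 0.09. ID3, an inhibitor of basic helix-loop-helix factors and a BMP target, averaged 40.1 CPM with Soyo-san and 18.2 CPM with Menthae Herba (1.16 ± 0.12, adjusted p = 9.7e-10).

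Transcript length moved with this group. Of the 12 genes with the highest fold changes by the naming rule, 7 have a longest transcript over 9000 bases (APOB 14121 bases, LRP1 14897, FRAS1 15624), against 4.65% of the 16861 tested genes with a known length, and 0 of the 12 lowest do. The median log2 fold change at 500 µg/mL over protein-coding genes was -0.06 where the longest transcript has up to 1500 bases and 0.05 where it has over 10000. After removal of each library's trend on transcript GC content and length, APOB stood at 1.64, FN1 at 1.27 and RELN at 1.25, within 0.1 of their values above. The length in that trend is the mean over a gene's transcripts, so a trend on the longest transcript was not removed as such.

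Other secreted liver proteins were higher with Soyo-san by less. Of 21 tested secreted proteins of hepatocytes 11 were higher and 0 lower at 500 µg/mL, with a median of 0.22, and 9 were called in the interaction. Haptoglobin (HP) had 153 and 152 CPM with Soyo-san and 109, 109 and 106 CPM with Menthae Herba (0.50 ± 0.05, adjusted p = 3.3e-10). The fibrinogen chain FGA had 1264 and 1266 CPM with Soyo-san and 969, 892 and 845 CPM with Menthae Herba (0.49 ± 0.04, adjusted p = 1.3e-12). Alpha-fetoprotein (AFP), a fetal liver protein kept by this line, averaged 3390 ± 119 CPM with Soyo-san and 2443 ± 134 CPM with Menthae Herba (SD, n = 2 Soyo-san and 3 Menthae Herba; 0.47 ± 0.05, adjusted p = 4.6e-09). Albumin (ALB) averaged 8399 ± 114 CPM with Soyo-san and 7026 ± 359 CPM with Menthae Herba (0.26, adjusted p = 7.1e-04), and the interaction of ALB, at 0.27, lost its call when 1 of several single libraries was left out. APOA1, with -0.00, and TTR, with -0.08, were among the 10 secreted proteins not called. Between the doses 1 rose and 7 fell with Soyo-san, and 0 rose and 16 fell with Menthae Herba. In bulk RNA a lower level in every cell and a loss of a part of the cells cannot be told apart.

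**Figure D2:**
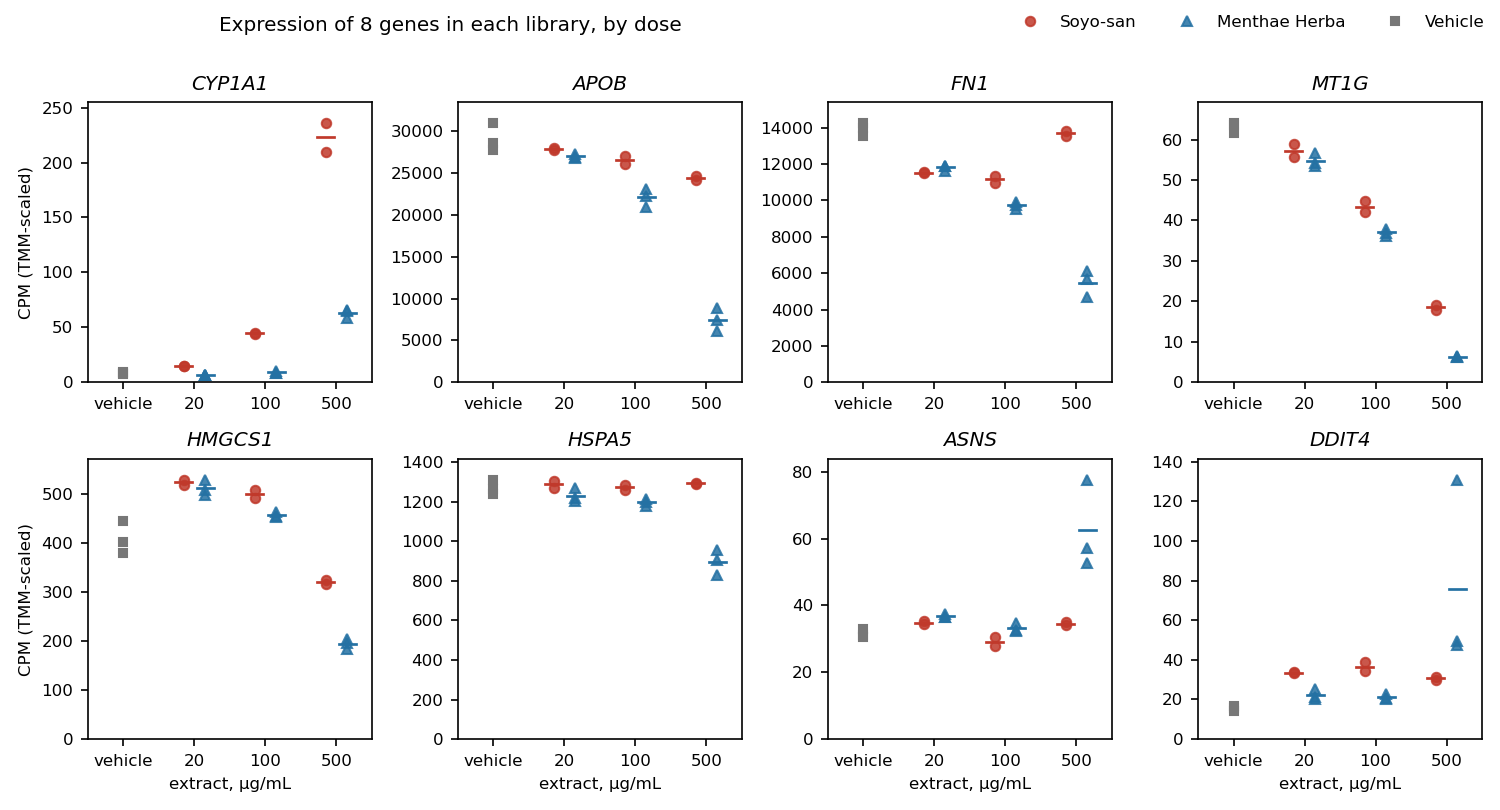
CPM of 8 genes in each library by dose of extract in µg/mL, with vehicle at the left, Soyo-san as circles and Menthae Herba as triangles, and a line at each group's mean. At 500 µg/mL the extracts separate in all 8 genes; Menthae Herba replicate 1 is the highest triangle of ASNS (77.6 CPM) and DDIT4 (131 CPM).

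The metallothioneins fell with the dose of both extracts and were higher with Soyo-san than with Menthae Herba at 500 µg/mL. MT1G had 17.9 and 19.1 CPM in the Soyo-san libraries and 6.17, 6.23 and 6.4 CPM in the Menthae Herba libraries at 500 µg/mL, with 57.2 CPM at 20 µg/mL of Soyo-san, 54.8 CPM at 20 µg/mL of Menthae Herba and 63.1 CPM in vehicle. The difference at 500 µg/mL was 1.57 ± 0.16 (adjusted p = 9.7e-11), and the interaction 1.51 ± 0.19 (adjusted p = 1.1e-07). Between 500 and 20 µg/mL MT1G fell by 1.62 on the log2 scale in Soyo-san and by 3.13 in Menthae Herba (adjusted p = 2.2e-12 and 8.6e-25). MT1E had 46.9 and 47.3 CPM with Soyo-san and 20.4, 19.4 and 21 CPM with Menthae Herba (1.22 ± 0.11), and MT1F averaged 9.44 CPM with Soyo-san and 3.72 CPM with Menthae Herba (1.35 ± 0.17). Of 9 listed genes 8 were tested, and 6 were higher and 0 lower with Soyo-san, including the zinc exporter SLC30A1 (0.44, adjusted p = 7.4e-06), which MTF1 also drives; the list median was 1.15. All 6 were called in the interaction too, and all 6 fell between the doses of each extract. MT1 genes lie side by side on chromosome 16 and are near-identical in sequence, so reads may be split between them and the values of single MT1 genes are uncertain.

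Genes of cholesterol synthesis and uptake formed the most uniform group. Of 24 genes 22 were higher and 0 lower with Soyo-san at 500 µg/mL, with a median of 0.42, and 19 were called in the interaction; at 20 µg/mL edgeR called 0, as did DESeq2, 0 had an unadjusted p under 0.05, and the median was 0.02. The count of 22 held in each of the 12 alternative settings, including each library left out. HMGCS1, which makes HMG-CoA, had 316 and 324 CPM with Soyo-san and 183, 204 and 196 CPM with Menthae Herba (0.72 ± 0.07, adjusted p = 1.5e-11). Most genes of the list fell with the dose of both extracts, 21 of 24 with Soyo-san at a median of -0.41 and 23 of 24 with Menthae Herba at a median of -0.87. The 2 genes not called at 500 µg/mL were PMVK and INSIG1, and INSIG1 was at most 0.116 CPM in these 5 libraries.

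Genes of fatty acid and triglyceride synthesis were higher with Soyo-san too. Of 15 tested genes 12 were higher and 0 lower at 500 µg/mL, with a median of 0.32, and 8 were called in the interaction; the interaction count was 5 without a low-count filter or without Soyo-san 500 µg/mL replicate 1. SCD, the stearoyl-CoA desaturase, had 2227 and 2116 CPM with Soyo-san and 1361, 1358 and 1325 CPM with Menthae Herba (0.69 ± 0.04, adjusted p = 1.9e-19). The desaturase FADS2 averaged 181 CPM with Soyo-san and 110 CPM with Menthae Herba (0.72 ± 0.05, adjusted p = 5.4e-16), and ACSS2, which makes acetyl-CoA from acetate, averaged 78.3 CPM with Soyo-san and 55.4 CPM with Menthae Herba (0.50 ± 0.04, adjusted p = 1.9e-12). The lipid droplet coat protein PLIN2, counted among the fatty acid oxidation and PPARA targets below and not in this list, went the other way. It had 151 and 155 CPM in Soyo-san libraries and 204, 213 and 219 CPM in Menthae Herba libraries (-0.47 ± 0.05, adjusted p = 3.9e-09). It rose with the dose of both extracts, by 0.26 in Soyo-san and 0.80 in Menthae Herba. Among fatty acid oxidation and PPARA targets 1 of 18 was higher and 4 were lower, against 6.55% and 3.13% of all genes tested. The fatty acid binding protein FABP1 was the 1 higher gene, at 125 and 113 CPM with Soyo-san and 76, 81.8 and 90.1 CPM with Menthae Herba (0.53 ± 0.13, adjusted p = 0.00518). Its call was lost without Soyo-san replicate 1 (0.45, adjusted p = 0.128), and the count of 4 lower genes was 1 without that library. The interaction of FABP1 was not called (0.61, adjusted p = 0.0594). In some alternatives it was called, among them only the groups of the contrast (9.1e-04) and removal of the GC and length trend (0.0281).

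ER chaperones and folding enzymes were higher with Soyo-san and fell with the dose of Menthae Herba. HSPA5, the ER chaperone BiP, had 1295 and 1292 CPM with Soyo-san and 955, 905 and 829 CPM with Menthae Herba at 500 µg/mL (0.53 ± 0.05, adjusted p = 5.6e-12). At 20 µg/mL the means were 1289 CPM with Soyo-san and 1230 CPM with Menthae Herba, and vehicle had 1272 CPM. HSP90B1, the ER form of HSP90, differed by 0.61 ± 0.04 (1089 CPM with Soyo-san and 714 CPM with Menthae Herba, adjusted p = 3.9e-16), the chaperone HYOU1 by 0.58 ± 0.06 (331 CPM with Soyo-san and 222 CPM with Menthae Herba) and SEL1L, of ER-associated degradation, by 0.56 ± 0.06 (143 CPM with Soyo-san and 96.9 CPM with Menthae Herba). Of 19 tested genes of the unfolded protein response 12 were higher and 1 lower, with a median of 0.30, and 11 and 1 were called in the interaction. Between 500 and 20 µg/mL of Soyo-san edgeR and DESeq2 each called 0 of the 19, with 3 at an unadjusted p under 0.05, while 12 fell and 3 rose with Menthae Herba. HERPUD1, which is also an ATF4 target, was the 1 lower gene, at 69.2 and 67.3 CPM with Soyo-san and 129, 77.4 and 71.9 CPM with Menthae Herba (-0.45 ± 0.11, adjusted p = 0.00565), and its call was lost without Menthae Herba replicate 1 (-0.14, adjusted p = 0.267).

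**Figure D3:**
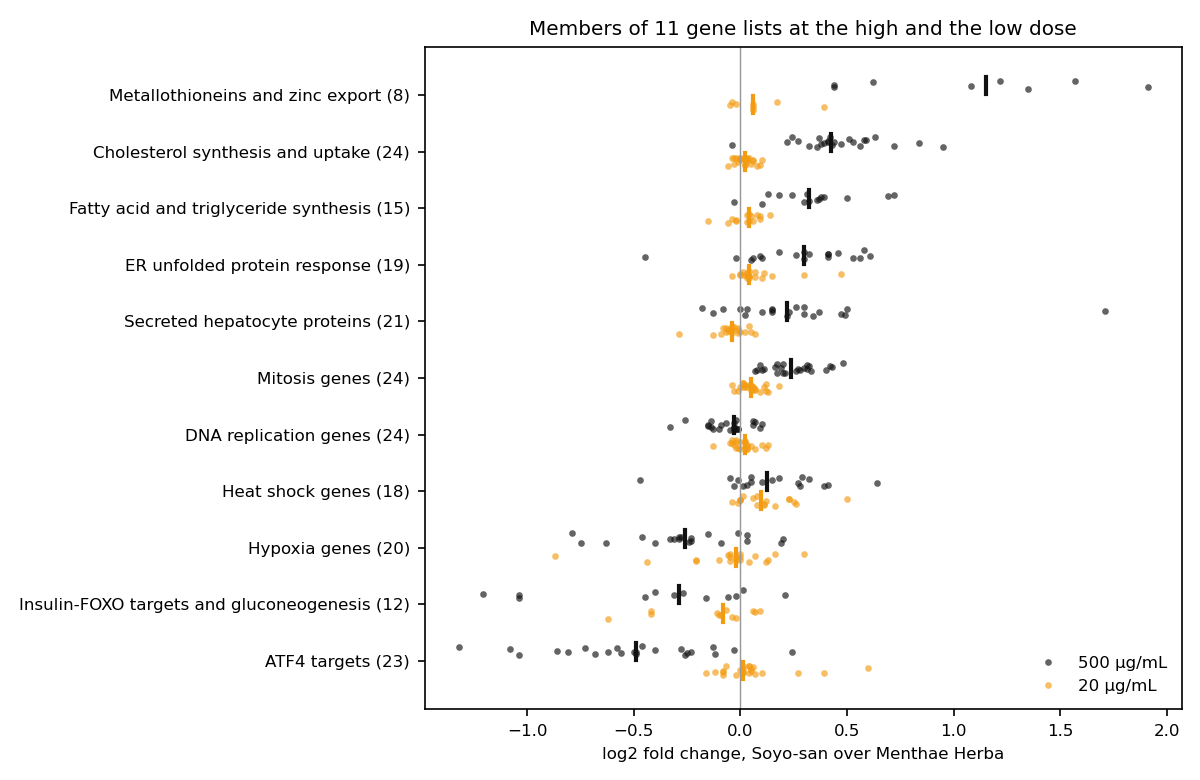
Log2 fold change of Soyo-san over Menthae Herba for each tested member of 11 gene lists (number of tested members in brackets), at 500 µg/mL in black and 20 µg/mL in orange, with a bar at each median. Medians at 500 µg/mL run from 1.15 for metallothioneins to -0.49 for ATF4 targets, and medians at 20 µg/mL stay between -0.08 and 0.09.

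ATF4 targets stood on the other side. Of 23 tested targets 17 were lower and 1 higher with Soyo-san at 500 µg/mL, with a median of -0.49, and 13 were lower in the interaction. ASNS, asparagine synthetase, had 34.1 and 34.9 CPM with Soyo-san and 77.6, 57.3 and 52.6 CPM with Menthae Herba (-0.86 ± 0.10, adjusted p = 2.3e-09). ASNS averaged 34.8 CPM with Soyo-san and 36.8 CPM with Menthae Herba at 20 µg/mL, and 31.5 CPM in vehicle. ASNS lies on chromosome 7 at 97852118 to 97872542 of GRCh38, minus strand (ENSG00000070669). Its promoter is shown because it holds the core of the CEBP-ATF response element through which ATF4 acts, TGATGNAA; the 250 bases upstream of the first of 2 RefSeq entries (GRCh38.p14, chr7:97872409-97872658, minus strand) have 1 match on either strand, in capitals, starting 68 bases before the start.

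ASNS: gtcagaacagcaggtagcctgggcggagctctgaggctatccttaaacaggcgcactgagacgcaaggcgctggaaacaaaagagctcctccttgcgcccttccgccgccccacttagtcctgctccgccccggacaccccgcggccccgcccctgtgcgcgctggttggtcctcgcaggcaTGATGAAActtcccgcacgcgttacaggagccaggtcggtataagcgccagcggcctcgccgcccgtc

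This motif occurs in 3.14% of the 35116 RefSeq promoters of the same length, and the match shows no binding in these cells. DDIT4, the mTORC1 inhibitor REDD1, had 31.5 and 29.9 CPM with Soyo-san and 131, 47.4 and 49.5 CPM with Menthae Herba (-1.32 ± 0.24, adjusted p = 6.6e-05). NUPR1, a stress-induced nuclear protein, had 10.7 and 10.2 CPM with Soyo-san and 27.4, 18.3 and 18.4 CPM with Menthae Herba (-1.04 ± 0.15, adjusted p = 5.2e-07). In both genes Menthae Herba replicate 1 stood above replicates 2 and 3, which in turn stood above both Soyo-san libraries. GDF15, a secreted stress cytokine, had 190 and 202 CPM with Soyo-san and 349, 249 and 235 CPM with Menthae Herba (-0.50 ± 0.11, adjusted p = 8.2e-04), and it rose with the dose of both extracts, by 0.73 in Soyo-san and 1.62 in Menthae Herba. At 100 µg/mL GDF15 was called in the other direction, at 134 CPM with Soyo-san and 94.1 CPM with Menthae Herba (0.51 ± 0.11, adjusted p = 0.0183), and at 20 µg/mL it averaged 118 CPM with Soyo-san and 90.1 CPM with Menthae Herba and was not called (0.39, adjusted p = 0.174). The stress regulators ATF3 and DDIT3, the adrenomedullin relative ADM2, the activin chain INHBE and the AP-1 repressor JDP2 were also among the 12 lowest genes, with log2 fold changes between -1.08 and -0.68.

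Menthae Herba replicate 1 carried a large part of this difference. All 23 tested targets were higher in it than in the other two Menthae Herba libraries. Summed over the 23 genes the level was 2839 and 2832 CPM with Soyo-san and 4061, 3067 and 3031 CPM with Menthae Herba at 500 µg/mL, where it was 2811 and 2811 CPM with Soyo-san and 2740 to 2762 CPM with Menthae Herba at 20 µg/mL. Without that library 11 of the 23 were called lower at 500 µg/mL and 9 in the interaction, and with only the groups of the contrast in the fit 8 and 9 were. With only those groups the fold changes of DDIT4 (-1.32, adjusted p = 0.0671), ADM2 (-1.08, 0.0554), ATF3 (-1.08, 0.117), INHBE (-0.88, 0.129), DDIT3 (-0.68, 0.1) and SESN2 (-0.57, 0.202) hardly moved, and these genes and JDP2 (adjusted p = 0.0746) were no longer called at 500 µg/mL. Without Menthae Herba replicate 1 the log2 fold change at 500 µg/mL was -0.67 for DDIT4 (adjusted p = 0.00379), -0.82 for NUPR1 (1.9e-05), -0.68 for ASNS (9.1e-09), -0.64 for ADM2 (0.00448), -0.50 for ATF3 (0.0244), -0.59 for JDP2 (0.0123) and -0.31 for GDF15 (0.0352), and these remained called. In the same fit INHBE (-0.38, adjusted p = 0.0525), DDIT3 (-0.37, adjusted p = 0.0649) and the leucine sensor SESN2 (-0.18, adjusted p = 0.332) lost their calls at 500 µg/mL, and ADM2, ATF3, JDP2, INHBE, DDIT3 and SESN2 lost their interaction calls. Each of these calls was also lost with at least 1 Soyo-san library left out, and the interaction count of the list was 8 without Soyo-san 500 µg/mL replicate 1 or 20 µg/mL replicate 2. TRIB3, a pseudokinase of the same pathway, had 127 and 125 CPM with Soyo-san and 185, 131 and 133 CPM with Menthae Herba and was not called (-0.25, adjusted p = 0.0815). It was called lower without the filter (adjusted p = 1.1e-04) and after removal of the GC and length trend (0.0373). The same held without Menthae Herba replicate 2 (0.0164) or 3 (0.0208). Without Menthae Herba replicate 1 TRIB3 stood at -0.07 (adjusted p = 0.683). The part of depth, at 31843249 counts in this library, in its higher ATF4 targets was not tested.

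With Soyo-san 1 of the 23 targets rose between 20 and 500 µg/mL, GDF15, and 0 fell, while with Menthae Herba 17 rose and 1 fell. Over all genes 2.13% rose and 1.83% fell with Soyo-san, and 10.8% rose and 12.5% fell with Menthae Herba. The count of 17 includes Menthae Herba 500 µg/mL replicate 1 and was not repeated without that library.

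**Figure D4:**
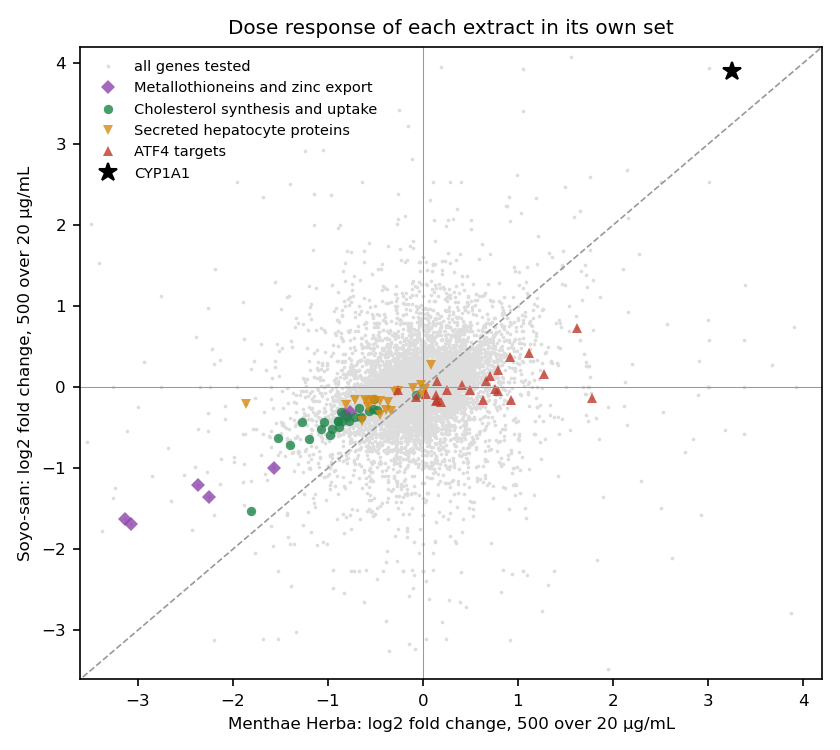
Log2 fold change between 500 and 20 µg/mL of Menthae Herba (x axis) and of Soyo-san (y axis) for each gene tested, with 4 gene lists and CYP1A1 marked and a dashed line where both are equal. Metallothioneins and cholesterol genes lie below 0 on both axes and nearly all above the line, most ATF4 targets lie to the right and near 0 on the y axis, and genes beyond the axes, MT1M at -4.19 on the x axis among them, are not drawn; CYP1A1 stands at 3.25 and 3.90.

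Mitosis genes were higher with Soyo-san by small amounts. Of 24 genes 18 were higher and 0 lower at 500 µg/mL, with a median of 0.23, and 5 were called in the interaction. MKI67, the proliferation antigen Ki-67, had 507 and 488 CPM with Soyo-san and 375, 389 and 368 CPM with Menthae Herba (0.40 ± 0.06, adjusted p = 6.5e-07). The mitotic kinesin KIF20A averaged 83.2 CPM with Soyo-san and 62.3 CPM with Menthae Herba (0.43 ± 0.05, adjusted p = 1.9e-08) and the kinase AURKA 211 CPM with Soyo-san and 159 CPM with Menthae Herba (0.42 ± 0.04, adjusted p = 4.2e-11). The count of 18 was 11 without Menthae Herba replicate 1 and 10 without Soyo-san replicate 2, and the interaction count was 3 without Soyo-san 500 µg/mL replicate 2 and 12 after removal of the GC and length trend. Of 24 DNA replication genes 0 were higher and 3 lower, with a median of -0.03, and edgeR and DESeq2 each called 0 in the interaction, with 6 at an unadjusted p under 0.05. The 3 lower genes were CDC6, RRM2 and CDT1, and the count was 0 without Soyo-san replicate 1 and 1 without Soyo-san replicate 2. Of all genes tested 6.55% were higher and 3.13% lower at 500 µg/mL.

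Further genes among the lowest with Soyo-san, also outside the ATF4 list, rose with the dose of Menthae Herba. DEPP1, a FOXO-regulated gene, had 17.8 and 18.5 CPM with Soyo-san and 51.9, 46.6 and 44.3 CPM with Menthae Herba (-1.39 ± 0.13, adjusted p = 9.9e-12), the lowest fold change of those named. CYP24A1, the vitamin D hydroxylase, had 25.3 and 30.6 CPM with Soyo-san and 51.4, 51.7 and 53.6 CPM with Menthae Herba (-0.89 ± 0.09, adjusted p = 9.5e-11). In both genes Menthae Herba replicate 1 did not stand apart from its fellows. Both rose between 20 and 500 µg/mL of Menthae Herba, by 1.79 for DEPP1 and 1.04 for CYP24A1, and DEPP1 also rose with Soyo-san, by 0.71. OSGIN1, an NRF2-responsive growth inhibitor, averaged 51.1 CPM with Soyo-san and 82.3 CPM with Menthae Herba (-0.69 ± 0.11, adjusted p = 4.6e-06), and its interaction call was lost without Soyo-san 500 µg/mL replicate 2 or 20 µg/mL replicate 1.

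Targets of FOXO factors and genes of gluconeogenesis, which insulin holds down, were lower with Soyo-san in part. Of 12 tested genes 1 was higher and 6 lower, with a median of -0.29, and 1 and 2 were called in the interaction. The 2 lower in the interaction were PPARGC1A and PCK2, and each of these calls was lost with certain single libraries left out. IGFBP1, an insulin-repressed secreted binding protein, had 93.3 and 96 CPM with Soyo-san and 201, 183 and 202 CPM with Menthae Herba (-1.04 ± 0.22, adjusted p = 8.6e-04), with no overlap. It rose with the dose of both extracts, by 1.65 in Soyo-san and 2.27 in Menthae Herba, and its interaction was not called (-0.62, adjusted p = 0.481). At 20 µg/mL the difference of IGFBP1 was -0.42 and not called (adjusted p = 0.779). The glucose-6-phosphatase gene G6PC1 stood at 4.7 and 3.71 CPM with Soyo-san and 10.6, 7.87 and 10.5 CPM with Menthae Herba (-1.21 ± 0.22, adjusted p = 5.5e-05), and its difference of -0.62 at 20 µg/mL was not called. Neither was its interaction, so for IGFBP1 and G6PC1 the set and the extract cannot be told apart. The coactivator PPARGC1A averaged 23.3 CPM with Soyo-san and 31.8 CPM with Menthae Herba (-0.45 ± 0.09, adjusted p = 4.4e-04), a call lost without Soyo-san replicate 2. The insulin receptor INSR was the 1 higher gene (0.21, adjusted p = 0.0139), a call lost without either Soyo-san library or without Menthae Herba replicate 3. G6PC1 was chosen after its values were seen.

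Hypoxia-inducible genes were also lower in part. Of 20 genes 1 was higher and 10 lower, with a median of -0.26, and 4 were called lower in the interaction. The glycolytic enzyme ALDOA had 1407 and 1479 CPM with Soyo-san and 1697, 1856 and 1881 CPM with Menthae Herba (-0.33 ± 0.06, adjusted p = 1.2e-04). VEGFA averaged 94.8 CPM with Soyo-san and 116 CPM with Menthae Herba (-0.29, adjusted p = 0.00952) and lost its call without Menthae Herba replicate 1 (-0.15, adjusted p = 0.215) or Soyo-san replicate 2. The count of 10 was 4 without either Soyo-san library and 6 without Menthae Herba replicate 3, and the interaction count was 0 without Soyo-san 20 µg/mL replicate 1.

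Most NRF2 targets, the antioxidant battery, rose with both extracts, and 16 of 23 were not called between the extracts at 500 µg/mL. Between 500 and 20 µg/mL 14 of 23 rose and 1 fell with Soyo-san, and 17 rose and 2 fell with Menthae Herba. At 500 µg/mL 2 were higher and 5 lower with Soyo-san, with a median of -0.07 and 0 higher and 1 lower in the interaction. Over all genes tested 6.55% were higher and 3.13% lower at 500 µg/mL, and 3.04% and 0.636% in the interaction. HMOX1, heme oxygenase, had 47.5 and 52.3 CPM with Soyo-san and 42.5, 44.4 and 45.7 CPM with Menthae Herba (0.18 ± 0.06, adjusted p = 0.0385), a call lost in 6 of the 12 alternatives. The count of 5 lower genes was 3 without Soyo-san replicate 1.

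Heat shock and RNA-processing genes were among the few that differed at 20 µg/mL. Of 18 heat shock genes 8 were higher and 0 lower with Soyo-san at 500 µg/mL, with 2 higher at 20 µg/mL, HSPA1B and HSPA8, and 0 in the interaction by edgeR and by DESeq2, where 2 had an unadjusted p under 0.05; the count of 8 was 3 to 5 without Soyo-san replicate 1 or 2 or Menthae Herba replicate 1 or 3. HSPA1B, the inducible cytosolic chaperone, had 181 and 181 CPM with Soyo-san and 114, 121 and 114 CPM with Menthae Herba at 500 µg/mL, and averaged 186 CPM with Soyo-san and 131 CPM with Menthae Herba at 20 µg/mL, where vehicle had 223 CPM. The difference was 0.64 at 500 and 0.50 at 20 µg/mL (adjusted p = 2.7e-06 and 0.01), and the interaction was 0.14 (adjusted p = 0.786). Reads of HSPA1B may be shared with its near-identical neighbour HSPA1A. The splicing-related genes RBM39, RSRC2, PNN, LUC7L, PRPF4B and RSRP1 were among the 20 genes higher at 20 µg/mL, by 0.21 to 0.45, and RSRP1 averaged 28 CPM with Soyo-san and 20.6 CPM with Menthae Herba at that dose. Their interactions lay between -0.10 and -0.00 and were not called (adjusted p from 0.537 to 0.999). These genes were chosen after their values were seen.

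Drug-metabolism genes outside the AHR battery, and cell-cycle and growth regulators of the fixed panel, gave mixed values. The efflux pump ABCB1 had 86.8 and 84.2 CPM with Soyo-san and 66.3, 60.7 and 50.6 CPM with Menthae Herba (0.53 ± 0.06, adjusted p = 2.5e-08). ALAS1, the first enzyme of heme synthesis, had 43.6 and 45.3 CPM with Soyo-san and 58.6, 59.8 and 62.1 CPM with Menthae Herba (-0.43 ± 0.05, adjusted p = 1.7e-09). CYP3A4, the main drug-oxidizing enzyme of adult liver, was at most 0.497 CPM in these libraries and was not called, and CYP1B1 did not pass the low-count filter. The p53 target CDKN1A averaged 99.3 ± 11.5 CPM with Soyo-san and 83.4 ± 7.16 CPM with Menthae Herba (0.25, adjusted p = 0.0773), a difference that was called without the filter (adjusted p = 0.00472), after removal of the GC and length trend (0.018) and without Soyo-san replicate 2 (0.0457). At 100 µg/mL CDKN1A was called, at 92.5 CPM with Soyo-san and 68.2 CPM with Menthae Herba (0.44 ± 0.09, adjusted p = 0.0133). EGR1 averaged 9.26 ± 1.11 CPM with Soyo-san and 11.7 ± 1.23 CPM with Menthae Herba (-0.36, adjusted p = 0.114). It was called lower without the filter (adjusted p = 0.00886) and after removal of the GC and length trend (0.0397). TXNIP, a glucose-responsive thioredoxin inhibitor, averaged 38.5 CPM with Soyo-san and 51.1 CPM with Menthae Herba (-0.40 ± 0.09, adjusted p = 0.00102), a call lost without Soyo-san replicate 1. ANGPTL4, a lipase inhibitor, averaged 0.76 CPM with Soyo-san and 1.12 CPM with Menthae Herba with overlapping libraries (-0.60, adjusted p = 0.227). At 500 µg/mL the 13 listed mitochondrially encoded genes gave 0 calls by edgeR and by DESeq2 and 0 at an unadjusted p under 0.05, with fold changes between -0.15 and 0.13. The mitochondrial ribosomal RNA genes are outside this list. MT-RNR2 averaged 25725 CPM with Soyo-san and 29887 CPM with Menthae Herba, and MT-RNR1 6061 CPM with Soyo-san and 8781 CPM with Menthae Herba. They ranked 3 and 4 by absolute difference in mean CPM.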

How the data were processed

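The deposited table holds RSEM expected counts (estimated counts per gene, not normalized) for 60 libraries; the submitters' processing notes name FastQC 0.11.9, Trim Galore 0.6.5, STAR 2.7.3a, RSEM 1.3.3 and GRCh38. Per the labels' protocols, RNA with a RIN above 7 went into a directional kit with 100 bp paired reads. The sources used here do not name the annotation release or the strand setting of the counting. Of 60675 gene IDs 57055 matched GENCODE 29; it gave names, coordinates and lengths. No column was left unmapped. Of the values 9.97% were not whole, and all were rounded.

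Libraries were grouped by their labels. The main test was edgeR 4.0.16 (R 4.3.3), quasi-likelihood with TMM factors, fitted on 57 libraries in 22 groups (35 residual degrees of freedom; the formula with 1 library per dose was left out) and on the 16982 genes passing the low-count filter at a minimum count of 10, of 35976 with a count. Every p-value is from this test unless another tool is named, adjusted by Benjamini-Hochberg over all genes tested and called under 0.05. Fold changes are log2 with SE, and levels are CPM on TMM-scaled library sizes; a difference in CPM is relative to all other RNA of the library. The common dispersion of 0.00216 corresponds to a coefficient of variation of 4.65%, and total counts of the libraries compared are given in the text. The code of the test was checked on counts simulated from its own fitted model, which says nothing on set differences or outlying libraries.

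Alternatives were DESeq2 1.42.0, its size factors in edgeR, no filter, a mean of at least 1 CPM, only the groups of the contrast, the replicate number as a block, removal of each library's trend on GC content and mean transcript length (a spline with 4 degrees of freedom, entered as an offset), and leaving out each library. Same-numbered libraries of the sets varied together only weakly (r of deviations 0.0695 and 0.0755 at 500 µg/mL). With 2 Soyo-san libraries the deviations mirror each other, so these values cannot decide whether the numbers pair the libraries.

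Named genes are the 12 highest and the 12 lowest fold changes at 500 µg/mL among genes also called in the interaction in the same direction, without overlap of libraries and a mean of 5 CPM or more in 1 of the groups; a panel of 18 genes; and up to 3 members per list by the same 2 calls. Others are named where they make up a count or after their values were seen: AHRR, NFE2L2, SLC7A5, APOA1, TTR, SLC30A1, PMVK, INSIG1, HERPUD1, CDC6, RRM2, CDT1, G6PC1, HSPA1B, HSPA8, MT1M and the splicing-related genes. The comparison, its members and the gene lists were chosen with earlier results of these data known. Promoters are from RefSeq. Some genes that the rule names are not reported here.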

Additional observations from a re-analysis of the deposited data

Results flagged for a closer look

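In 3 named genes the extracts moved in opposite directions between 20 and 500 µg/mL, and the difference itself was tested by the interaction (edgeR, adjusted over all genes). FN1, fibronectin, rose by 0.24 on the log2 scale with Soyo-san and had a log2 fold change of -1.11 with Menthae Herba, an interaction of 1.35 (adjusted p = 1.2e-18). The efflux pump ABCB1 had 0.33 with Soyo-san and -0.18 with Menthae Herba (adjusted p = 0.00188 and 0.0219), with an interaction of 0.51 (adjusted p = 1.7e-04). Menthae Herba 500 µg/mL replicate 1, at 66.3 CPM of ABCB1, lay within the 65.8 to 67.7 CPM of Menthae Herba at 20 µg/mL. NPC1, the lysosomal cholesterol exporter, had 0.25 with Soyo-san and -0.13 with Menthae Herba (adjusted p = 0.00125 and 0.0252), with an interaction of 0.38 (adjusted p = 1.3e-04). Its level was 120 CPM in Menthae Herba 500 µg/mL replicate 1 and 117, 120 and 120 CPM in Menthae Herba libraries at 20 µg/mL. Over all genes 15 were called in opposite directions with the 2 extracts and in the interaction. Whether the dose calls of single genes hold in the alternative settings was not examined.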

How the results depend on the processing

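The comparison at 500 µg/mL is limited by 2 Soyo-san libraries, 1 of them the shallowest of the series. Its count of 1644 was 861 to 1425 with single libraries left out. At 100 µg/mL the count of 60 was 282 without the filter, 93 with the replicate block, 228 after removal of the GC and length trend, 512 with only the groups of the contrast and 2 to 30 with single libraries left out. For the low dose the 25 became 191 without the filter, 105 after removal of the trend, 130 with only the groups and 2 to 14 with single libraries left out. The Soyo-san dose count of 671 was 1025 after removal of the trend and 323 to 419 with libraries left out. The 2 further counts over all genes stayed within 1.5 times: the interaction count was 428 to 664 and the Menthae Herba dose count 3230 to 3543 with libraries left out. Counts over lists moved further in places, as given beside most of them. In addition the immediate early genes called lower, 5, were 8 without the filter or the trend and 2 to 3 with only the groups or with single libraries left out; in the interaction their 3 were 8 without the filter, 5 with only the groups or without the trend and 1 without Soyo-san 500 µg/mL replicate 1. With only the groups, the mitosis genes called in the interaction were 10 instead of 5, the Wnt targets called higher 3 instead of 6 and the DNA replication genes called lower 1 instead of 3. The autophagy genes called lower, 5, and YAP and SRF targets, 3, were 3 and 1 without Soyo-san replicate 1, and the autophagy genes called higher, 3, were 5 without the trend. DESeq2 called 1480 at 500 µg/mL and 615 in the interaction. The replicate block gave 1640 and 645. Since it is not known whether the numbers pair the libraries, nothing is read from it.

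Of 945 repeats of named genes at 500 µg/mL, 886 kept direction and call, 47 lost the call, 9 gained it and 3 changed sign; for the interaction these were 1315, 89, 12 and 3 of 1419. ALDH3A1, never called, had -0.00 at 500 µg/mL without the filter and -0.03 to 0.07 with libraries left out, and in the interaction -0.10 to 0.40. The interaction of CDKN1A, not called, was -0.19 to 0.05. The causes were not tested. The lists under each setting were recounted after seeing the data.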

Other observations

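Further liver and lysosomal genes separated the extracts. HAMP, the iron hormone hepcidin, had 10.8 and 13.5 CPM with Soyo-san and 6.26, 5.85 and 6.75 CPM with Menthae Herba at 500 µg/mL (0.97 ± 0.13, adjusted p = 1.3e-07), and it fell with the dose of both, by 0.92 on the log2 scale with Soyo-san and 1.99 with Menthae Herba. At 100 µg/mL HAMP was called in the other direction, at 20.5 CPM with Soyo-san and 28.1 CPM with Menthae Herba (-0.46 ± 0.09, adjusted p = 0.0133). The chemokine CCL20 had 18.9 and 20.7 CPM with Soyo-san and 29.2, 31.8 and 29.9 CPM with Menthae Herba (-0.60, adjusted p = 0.00285), a call lost without Soyo-san replicate 1. These were 2 of the 3 genes called among 13 acute phase and NF-kB genes, 1 higher and 2 lower. NR0B2, the bile acid-induced repressor SHP, averaged 32.9 CPM with Soyo-san and 46.7 CPM with Menthae Herba (-0.50, adjusted p = 7.1e-04), and 2 of 14 bile acid genes were higher and 1 lower. Over all genes tested 6.55% were higher and 3.13% lower at 500 µg/mL.

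Of 19 autophagy and lysosome genes 3 were higher and 5 lower with Soyo-san, with a median of 0.02. The shares over all genes tested, for this and the other lists of this paragraph, were 6.55% higher and 3.13% lower. The autophagy receptor SQSTM1, which NRF2 also drives, had 245 and 261 CPM with Soyo-san and 331, 321 and 326 CPM with Menthae Herba (-0.36 ± 0.04, adjusted p = 2.5e-08), and it rose with the dose of both extracts, by 0.40 with Soyo-san and 0.82 with Menthae Herba. The lysosomal membrane protein LAMP1 averaged 236 CPM with Soyo-san and 190 CPM with Menthae Herba (0.32, adjusted p = 3.0e-07), and NPC1 139 CPM with Soyo-san and 109 CPM with Menthae Herba (0.35, adjusted p = 3.2e-07). Of 14 Wnt targets 6 were higher and 0 lower, 3 without Soyo-san replicate 2, and the feedback inhibitor NKD1 had 376 and 371 CPM with Soyo-san and 276, 288 and 295 CPM with Menthae Herba (0.39 ± 0.05, adjusted p = 1.5e-07). Of 21 immediate early genes 0 were higher and 5 lower, 2 without Menthae Herba replicate 1; KLF6 had 96.8 and 99.3 CPM with Soyo-san and 157, 120 and 116 CPM with Menthae Herba (-0.42 ± 0.07, adjusted p = 6.2e-06), with -0.27 without Menthae Herba replicate 1 (adjusted p = 4.5e-05). Among YAP and SRF targets 1 of 18 was higher and 3 lower, and ACTG1, cytoplasmic gamma actin, averaged 2058 CPM with Soyo-san and 2660 CPM with Menthae Herba (-0.37, adjusted p = 7.7e-07).

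Among the 15 genes that moved in opposite directions with the 2 extracts, MTTP, which loads lipid onto the APOB protein, had a log2 fold change between 500 and 20 µg/mL of 0.21 with Soyo-san and -0.52 with Menthae Herba (interaction 0.73, adjusted p = 6.4e-10). The mannose 6-phosphate receptor IGF2R had 0.22 with Soyo-san and -0.59 with Menthae Herba (interaction 0.81, adjusted p = 1.9e-10), and the transferrin receptor TFRC 0.27 with Soyo-san and -0.17 with Menthae Herba (interaction 0.44, adjusted p = 6.7e-05). These 3 were chosen after their values were seen.

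Of the genes counted in other fixed lists, p53 targets gave 2 higher and 2 lower of 20, ribosome biogenesis 1 and 1 of 20, glutathione transferases 0 and 1 of 12, tubulins 0 and 1 of 11, hepatocyte transcription factors 1 and 1 of 16, glucose-sensing genes 2 and 1 of 9, and PXR and CAR targets 2 and 2 of 9. Over all genes tested 6.55% were higher and 3.13% lower at 500 µg/mL, and these small counts are a description only.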
